A study of Homo sapiens with 38 samples.

Results

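MS177-N2 is a control compound of the MS177 set, whose parent, MS177, was built to degrade EZH2. Its effect on transcripts was measured in T47D-TR, an established human breast cancer line of the T47D family. Polyadenylated RNA was sequenced from 2 libraries of cells given 2.5 uM MS177-N2 for 48 h and from 2 libraries of cells given 0.125% DMSO, the vehicle, for the same time. These 4 of the 38 samples of the series form the comparison, chosen by their labels alone, and 10852 of the 16969 genes in their table were tested. For the comparison between compounds, T47D-TR cells had also received 2.5 uM MS177-N1 (a second control compound), C24 (an EZH2 inhibitor) or MS177 for 48 h, 2 libraries each. BT-549 and T47D, further established breast cancer lines, had received the same MS177-N2 and DMSO treatments. All cells grew with insulin and serum. The labels do not expand the suffix TR and do not say whether the 2 libraries of a group came from separate cultures, so p-values measure the spread between these libraries, which may be technical.

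EZH2 is an enzyme that methylates histone H3 at silenced developmental genes, as part of the polycomb complex PRC2. SUZ12 and EED are its core partners, and EZH1 is the related enzyme that can take its place. FOXM1 is a transcription factor of mitosis, and MYC drives growth and ribosome production. A control compound given beside a degrader serves to show which transcripts change without the degrader's intended action.

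Levels are normalized counts, recovered from the deposited log2 values. Log2 differences from DMSO keep the deposited scale. Since that scale understates changes of weakly expressed genes, folds are given as ratios of mean normalized counts. Normalized counts summed to 14.5 to 15.1 M per library over the listed genes, and the number of reads behind them is unknown. Mitochondrial transcripts made up 1.61 and 2.05% of the sum with DMSO and 1.31 and 1.80% with MS177-N2. Luminal keratins were abundant, with KRT8 at 117500 to 146400 in the 4 libraries and KRT18 at 39980 to 50530. All 16 luminal epithelial markers were listed, against 5 of 11 fibroblast, 2 of 8 endothelial and 4 of 12 leukocyte markers. Summed normalized counts were 157 and 150 with DMSO and 233 and 223 with MS177-N2 for the fibroblast markers, 25.9 and 30.3 against 15.1 and 22.2 for the endothelial ones, and 33.0 and 33.6 against 36.2 and 73.6 for the leukocyte ones. PTPRC and CD3E, which define leukocytes, and PECAM1 and VWF, which define endothelium, had no row in the table used here. The part of these markers in the results was not tested.

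EZH2 transcripts (GRCh38.p14, chromosome 7, 148807383 to 148884291) stood at 273 and 293 normalized counts with DMSO and at 257 and 280 with MS177-N2, so the groups overlapped. FOXM1 (chromosome 12, 2857680 to 2877174) stood at 1519 and 1842 with DMSO and at 1601 and 1781 with MS177-N2, inside the DMSO range. MYC was 1290 and 1305 with DMSO and 1341 and 1478 with MS177-N2. None of these passed, nor did the complex members: limma gave adjusted p = 0.9996 for EZH2, EZH1, EED, SUZ12, FOXM1 and MYC alike. Log2 differences were -0.04 ± 0.09 (SE) for EZH2, 0.01 ± 0.12 for FOXM1, 0.10 ± 0.10 for MYC, -0.16 ± 0.10 for SUZ12, -0.16 ± 0.15 for EZH1 and 0.03 ± 0.10 for EED.

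Only 19 of 10852 tested genes passed the threshold of adjusted p under 0.05 (0.175%, limma), and 18 of them fell (0.166%). The 18 were ARPIN, MVP, IKBKE, MRAS, FXYD3, SIDT2, INPP5J, ZBTB47, ZBED1, TK2, SOWAHA, AP1M2, SDSL, OAF, CELSR2, PLA2G4A, ADORA1 and ABHD6. CLN3 alone rose. Means fell 2.26- to 17.2-fold, with a median of 4.93-fold, from DMSO means of 85.1 to 2294. Over all tested genes the median log2 difference was -0.00135, with a middle 50% from -0.08 to 0.08. The 7 genes ARPIN, MVP, MRAS, FXYD3, INPP5J, ZBTB47 and SDSL passed in all 12 other settings tried. Without DMSO replicate 1 or without DMSO replicate 2, 11 genes passed, 9 of them among the 19, and 8 of the others were then no longer tested (ABHD6, ADORA1, IKBKE, OAF, PLA2G4A, SIDT2, TK2 and ZBED1). Without MS177-N2 replicate 2, 43 genes passed, with all 19 among them.

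**Figure D1:**
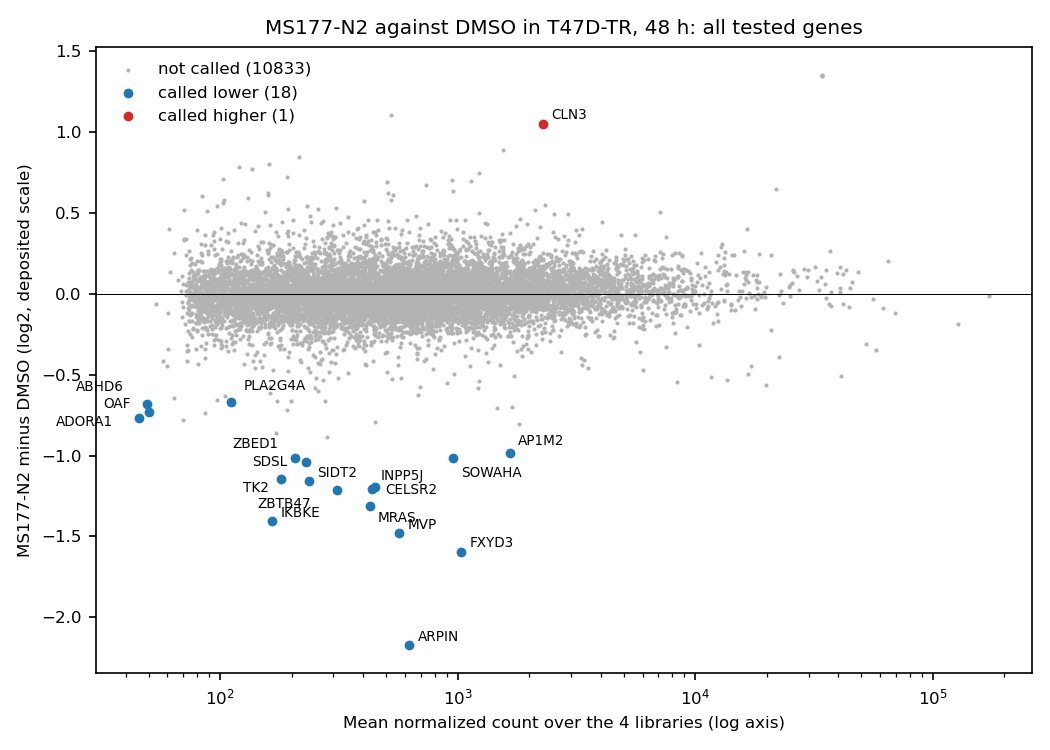
Each point is 1 of the 10852 tested genes: mean normalized count over the 4 libraries (x, log axis) against the log2 difference of MS177-N2 and DMSO on the deposited scale (y). The 18 genes called lower (blue, named) reach -2.17 for ARPIN, and CLN3 (red) is the one gene called higher, at 1.05.

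Promoters of the fallen genes shared a short word, which is shown here before the values because the results return to it in another line. RefSeq promoters (GRCh38.p14, 250 bases before to 50 bases after the start) were at hand for 15 of the 18 genes, and INPP5J, SDSL and OAF had no entry. Among all 2080 words of 6 letters, each counted on both strands, CTTTAA exceeded its share in all promoters by the widest margin. The next by margin was ACTCCT, in 9 of the 15 promoters (60.0%), against 14.9% of all promoters. CTTTAA stood in 11 of the 15 promoters (73.3%), against 13.1% of the 27305 promoters of the same length. The word was found by searching these same promoters after the genes were known, so its share in them is a description. The copies lay as follows, with the word in capitals, read 5′ to 3′ on the gene's own strand.
ARPIN (chr15:89912977-89913006, minus strand): ggagctcggtccCTTTAAatcccgccgagg
MVP (chr16:29820378-29820407, plus strand): tgcacacgggccCTTTAActcccaagcccc
IKBKE (chr1:206470396-206470425, plus strand): ttgcctctgtctCTTTAAgagagaaagaga
MRAS (chr3:138348592-138348621, plus strand): gcggcgcggtcgCTTTAAggaggcgccggg
SIDT2 (chr11:117178618-117178647, plus strand): cagctgcagcccCTTTAAgggcaaatgcgg
SIDT2 (chr11:117178645-117178674, plus strand): cgggacctggtcCTTTAAatctgtgtcagt
TK2 (chr16:66550156-66550185, minus strand): gcgaccgggtctCTTTAAgggccaggcgcc
SOWAHA (chr5:132813216-132813245, plus strand): ggagcgctgcgcCTTTAAttctggggcggg
AP1M2 (chr19:10587336-10587365, minus strand): tggccgcctcccCTTTAAgacgcacacacc
CELSR2 (chr1:109249470-109249499, plus strand): ccggcgttgccgCTTTAAggcggccgcggc
PLA2G4A (chr1:186828872-186828901, plus strand): ctccctcttcccCTTTAAttccaccttaaa
ABHD6 (chr3:58237763-58237792, plus strand): ggcacgctgcgcCTTTAAggagtccagctg
These 12 windows show how close the copies lay to the start. The first letter stood 42 bases before the start in ARPIN, 4 in MVP, 68 in IKBKE, 113 and 86 in SIDT2, 51 in TK2, 74 in SOWAHA, 41 in AP1M2, 57 in CELSR2, 65 in PLA2G4A and 17 in ABHD6. In MRAS it was base 26 of the transcript. SIDT2 held a further copy on the opposite strand at base 37, and SOWAHA 2 more, 231 and 169 bases before the start, the latter on the opposite strand. Of the 15 copies, 13 thus lay on the gene's strand, against 52.8% of the 4186 copies in all promoters. A copy on the gene's strand within the last 120 bases before the start was present in 10 of the 15 promoters and in 3.32% of all promoters. These strand and position shares come from the same promoters in which the word was found, so they too are a description. FXYD3, ZBTB47, ZBED1 and ADORA1 held no copy in their promoter windows. A single start per gene was used, and other starts were not searched. For FXYD3 (window 35117750 to 35118049), ZBTB47, MRAS and TK2 that start lay inside the coordinates of the gene.

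The upstream 250 bases of ARPIN, with 1 copy, and of SIDT2, with 2 copies in a row, give the wider setting of the word.
ARPIN (chr15:89912953-89913202, minus strand): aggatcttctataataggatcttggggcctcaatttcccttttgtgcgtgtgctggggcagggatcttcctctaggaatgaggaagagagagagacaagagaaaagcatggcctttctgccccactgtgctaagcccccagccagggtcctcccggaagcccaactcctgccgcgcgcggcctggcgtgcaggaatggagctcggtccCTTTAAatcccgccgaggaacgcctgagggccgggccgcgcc
SIDT2 (chr11:117178493-117178742, plus strand): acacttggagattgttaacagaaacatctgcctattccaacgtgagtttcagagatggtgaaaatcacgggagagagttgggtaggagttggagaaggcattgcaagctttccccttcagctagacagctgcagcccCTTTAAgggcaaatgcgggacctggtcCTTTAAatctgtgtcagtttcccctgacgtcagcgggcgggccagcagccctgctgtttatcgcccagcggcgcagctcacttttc
The longer word CTTTAAG, which contains the first and was also read on both strands, stood in 7 of the 15 promoters and in 3.77% of all promoters. The TATA word TATAAA stood, on either strand, in 0 of the 15, in 4.85% of the 8697 promoters of tested genes and in 11.95% of all promoters. The median GC content was 60.7% in the 15 promoters, 58.3% in all promoters, 47% in all promoters with the word, 60.7% in the 822 promoters of tested genes with the word and 65.7% over the 8697 promoters of all tested genes. The word stood in 9.45% of the promoters of tested genes. The part of GC content in these shares was not tested.

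The fallen genes are described by what each is known to do, an order chosen for reading and not tested for enrichment. Those that encode signalling enzymes and receptors are given here. IKBKE, a kinase of innate immune signalling, (chromosome 1, 206470476 to 206496889) had 326 and 298 normalized counts with DMSO and 13.2 and 23.1 with MS177-N2, the steepest fall by ratio (17.2-fold; log2 difference -1.40 ± 0.09, limma adjusted p = 0.00495). MRAS, a small GTPase of the RAS family, went from 701 and 709 to 141 and 153 (4.78-fold). INPP5J, a phosphatase of inositol lipids (chromosome 22, 31122614 to 31134697), went from 666 and 740 to 170 and 174 (4.08-fold). These values left a wide gap between the groups in each gene. PLA2G4A, the cytosolic phospholipase A2 that frees arachidonic acid, went from 178 and 173 to 47.2 and 48.5. ABHD6, a hydrolase of the endocannabinoid 2-arachidonoylglycerol, went from 85.7 and 90.1 to 8.02 and 13.3. ADORA1, an adenosine receptor (chromosome 1, 203127726 to 203167405), went from 84.8 and 85.3 to 9.72 and 2.30. These last genes were the least certain of the set: PLA2G4A, ABHD6 and ADORA1 each had adjusted p = 0.041 (limma) and passed in 3, 6 and 5 of the 12 other settings tried.

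The next fallen genes encode proteins of membranes, vesicle traffic, the cytoskeleton and vault particles. ARPIN, an inhibitor of the actin-branching Arp2/3 complex (chromosome 15, 89895006 to 89912952), had the largest difference on the deposited scale: 1187 and 1146 with DMSO and 78.9 and 92.8 with MS177-N2 (13.6-fold; -2.17 ± 0.09, limma adjusted p = 0.00101). FXYD3, a regulator of the sodium-potassium pump (chromosome 19, 35115823 to 35124324), went from 1801 and 1577 to 352 and 411 (4.43-fold). MVP, the major protein of vault particles, went from 924.9 and 974.5 to 195 and 178 (5.09-fold). In all of these, as in SIDT2, the 2 libraries of a group lay close together and the groups far apart. SIDT2, a lysosomal membrane protein, went from 404 and 401 to 68.7 and 73.3 (5.67-fold). CELSR2, an atypical cadherin of planar cell polarity, went from 593 and 842 to 163 and 192, with the widest DMSO spread by ratio among the genes fallen here. AP1M2, the medium subunit of an epithelial clathrin adaptor, was the most abundant fallen gene and fell least, from 2341 and 2246 to 992 and 1042 (2.26-fold).

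The remaining fallen genes encode zinc finger proteins, enzymes and others. ZBTB47, a zinc finger protein (chromosome 3, 42652931 to 42667580), went from 496 and 539 normalized counts to 86.7 and 119. ZBED1, a DNA-binding zinc finger protein (chromosome X, 2486435 to 2500976), went from 338 and 347 to 63.99 and 78.16. TK2, the thymidine kinase of mitochondria, went from 333 and 297 to 29.02 and 60.42 (7.04-fold). TK2 was the gene whose MS177-N2 libraries differed most from each other among those above 20 counts. SDSL, a serine dehydratase relative (chromosome 12, 113422380 to 113438276), went from 424 and 334 to 89.02 and 72.49. SOWAHA, an ankyrin repeat protein, went from 1441 and 1294 to 551 and 526. OAF (chromosome 11, 120211032 to 120230334) went from 94.6 and 88.4 to 6.90 and 10.8 (10.3-fold). Limma adjusted p for these 6 genes lay between 0.0103 and 0.0297.

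CLN3, a membrane protein of endosomes and lysosomes that is mutated in a juvenile neurodegenerative disease (chromosome 16, 28466653 to 28492082), was the single called rise. It had 1434 and 1330 normalized counts with DMSO and 3207 and 3151 with MS177-N2 (2.30-fold; 1.05 ± 0.10, limma adjusted p = 0.0199). Without DMSO replicate 2 its adjusted p was 0.0584. Exons of ARPIN overlap those of the readthrough C15orf38-AP3S2, those of ZBED1 overlap DHRSX and those of CLN3 overlap AC138894.1, all on the same strand, and exons of MVP, FXYD3, TK2, IKBKE and ADORA1 overlap less studied transcripts. Whether the counting used strand is not given in the sources used here, so these genes may share reads with their partners. The readthrough had 518 and 427 with DMSO and 319 and 346 with MS177-N2, DHRSX had 206 and 189 against 191 and 148, and neither passed (limma adjusted p = 0.733 and 0.9996).

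Just outside the threshold most genes were again lower. VASH1, an enzyme that trims tubulin, had 127 and 164 with DMSO and 24 and 30.2 with MS177-N2 (limma adjusted p = 0.0511). C11orf95 had 244 and 308 against 55.0 and 80.8 (limma adjusted p = 0.0519). The Wnt receptor FZD2 had 276 and 295 against 81.8 and 111 (limma adjusted p = 0.0661). Of the next 10 genes by p, 8 were lower. The 2 that were higher were SUMF2, at 996 and 997 against 1897 and 2308, and BHLHE41, a repressor of the circadian system, at 72.4 and 97.9 against 236 and 228 (limma adjusted p = 0.0683 and 0.11). UHRF1, a reader of hemimethylated DNA, was chosen after its values were seen because its DMSO libraries split: 80.3 and 478 with DMSO against 782 and 750 with MS177-N2 (limma adjusted p = 0.829).

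**Figure D2:**
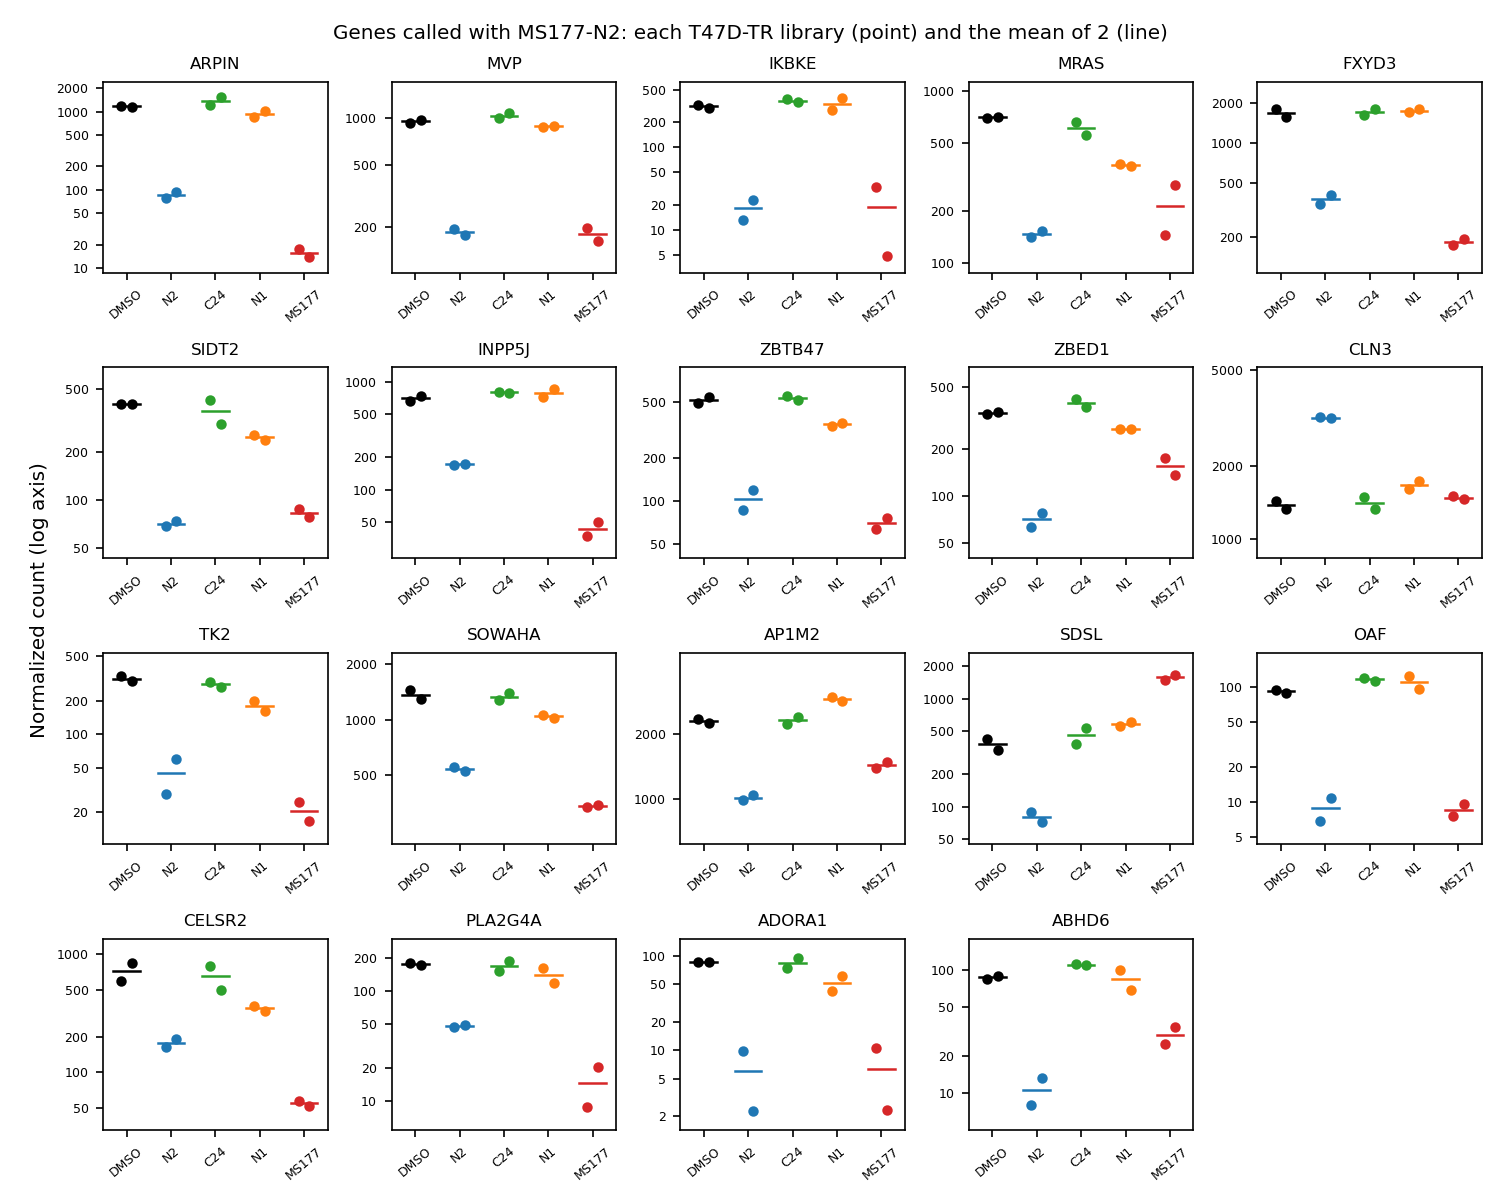
Each panel is 1 of the 19 called genes and each point 1 T47D-TR library, as normalized count on a log axis, for DMSO, MS177-N2 (N2), C24, MS177-N1 (N1) and MS177; the line is the mean of 2. C24 lies near DMSO in the fallen genes, and MS177 lies below DMSO in all of them but SDSL.

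Gene lists for the polycomb complex, cell cycle, stress, metabolism, hormone response, immunity and lineage were examined next, 27 in all. Across these and the marker lists 531 genes were tested and 1 was called, CELSR2, which is on the estrogen response list. At an unadjusted p under 0.05, 35 of the 531 (6.59%) passed, against 5.42% of all tested genes. The 12 tested polycomb subunits had a median log2 difference of 0.01, between -0.16 and 0.28, and the 18 polycomb-marked developmental genes one of 0.06. RBBP4 and RBBP7, histone-binding subunits, were the most abundant and stood at 3306 and 3383 against 3115 and 3443, and at 2853 and 2789 against 2860 and 2811. Neither pair showed a gap.

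Cell cycle lists lay slightly below the background without a call. The 43 FOXM1, MYBL2 and G2/M genes had a median of -0.09, with 37 lower and 6 higher by sign, and 0 reached an unadjusted p under 0.05 in either direction. TOP2A, the topoisomerase of mitosis, stood at 8574 and 8706 against 8524 and 7977, and MYBL2 at 6664 and 6159 against 5424 and 5538. The 40 S-phase and E2F genes had a median of -0.09, with 32 lower and 8 higher. MCM2, a subunit of the replicative helicase, stood at 4888 and 4665 against 4545 and 4301. None of these passed (limma).

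Stress and metabolic lists gave no call either. The 39 genes of ATF4, CHOP and the unfolded protein response had the highest median among the lists of nuclear genes with polyadenylated transcripts and 5 or more tested members, 0.10, with 30 higher and 9 lower and 0 called by limma. XBP1, a factor of that response, stood at 18670 and 15180 against 22240 and 17960. Cholesterol genes had a median of -0.09 over 25 members and NRF2 antioxidant genes one of 0.03 over 18. The 26 estrogen response genes had a median of -0.01, with 13 higher and 13 lower, and GATA3, the luminal transcription factor, stood at 14240 and 16230 against 14280 and 16580. IGFBP5, which binds insulin-like growth factors, stood at 43050 and 53380 against 31030 and 36470 and did not pass (limma adjusted p = 0.789).

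Among the lists with 5 or more tested members, the mitochondrial and histone lists lay farthest from the background. All 13 mitochondrially encoded transcripts were lower by sign, with a median of -0.39 and 0 called (limma), and MT-CO1 stood at 54170 and 61750 against 39990 and 53980. All 7 tested replication-dependent histone transcripts, most of which lack a poly(A) tail, were higher by sign, with a median of 0.22 and 0 called. HIST2H2BE stood at 380 and 407 against 557 and 566 (limma adjusted p = 0.517). The 3 near-identical ribosomal RNA copies CH507-513H4.3, CH507-513H4.4 and CH507-513H4.6 read 16840 to 19930 with DMSO and 32820 to 67470 with MS177-N2, also without a call (limma adjusted p = 0.421). RN7SK, a small nuclear RNA without a poly(A) tail, read 72.9 and 53.8 against 363 and 155 (limma adjusted p = 0.467). With MS177-N1 it read 277 and 348, with C24 202 and 296, and with MS177 86.7 and 170. CH507-513H4.3 read 64110 and 68490 with MS177-N1, 43620 and 57300 with C24, and 18180 and 33180 with MS177. Readings above those with DMSO were thus not particular to MS177-N2. These 4 genes were chosen after their values were seen. The part of these differences in the other results was not tested.

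**Figure D3:**
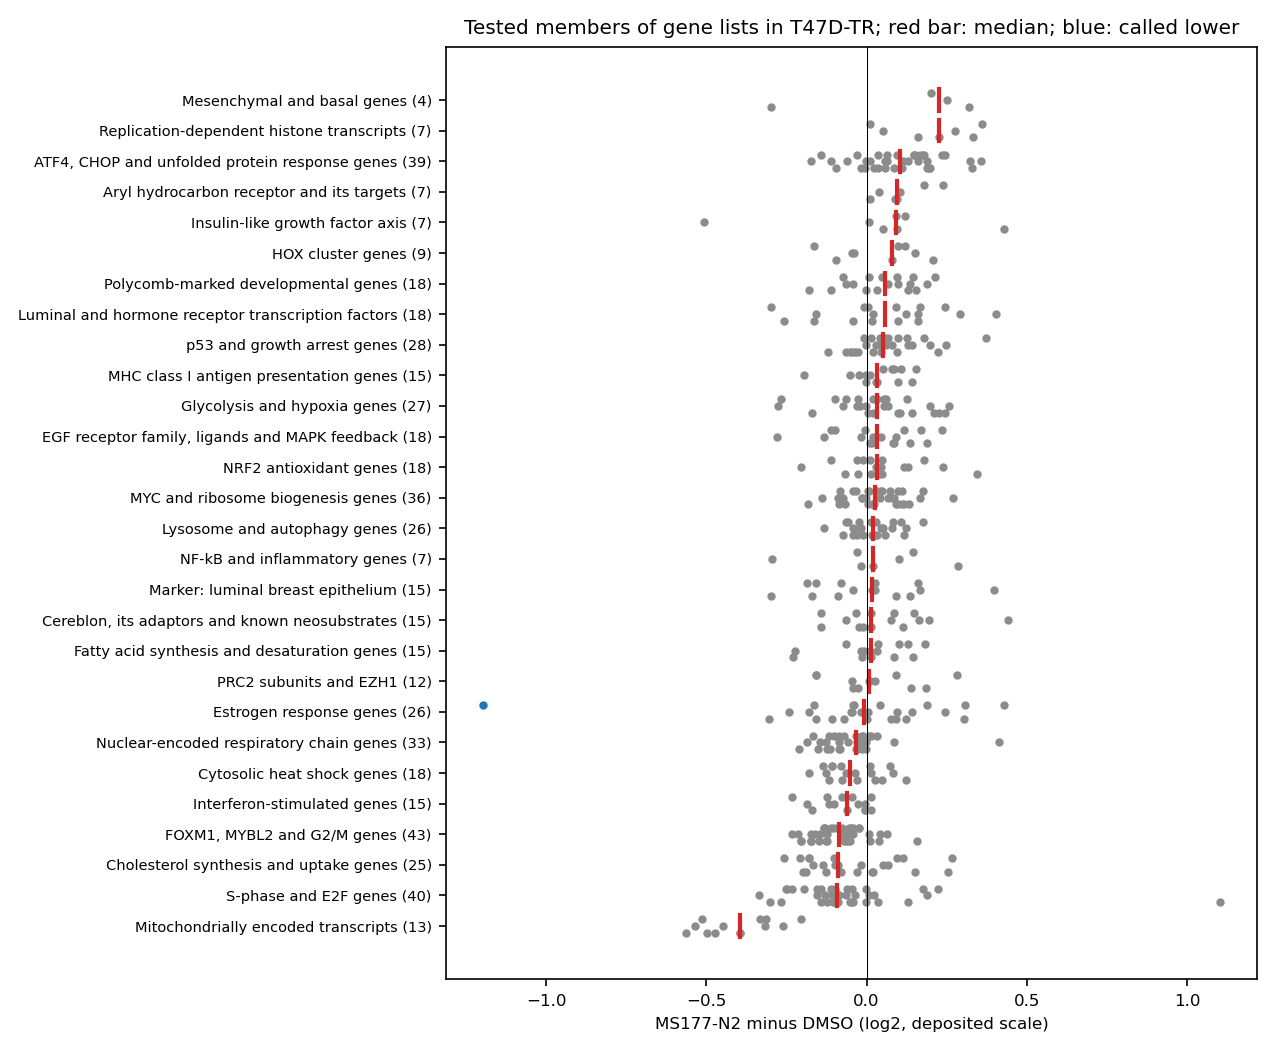
Each point is a tested member of a gene list, placed by its log2 difference of MS177-N2 and DMSO in T47D-TR on the deposited scale (x); the number tested is in brackets and the red bar is the median. Medians lie between -0.09 and 0.10 in the lists with 5 or more tested members other than the mitochondrial and histone lists, and CELSR2 (blue) is the one member called.

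Direct comparison with the other compounds at 2.5 uM and 48 h set these falls beside those of the other treatments. MS177-N2 was compared with 3 compounds in T47D-TR in 1 fit on log2(normalized count + 1), and p-values were adjusted over the genes of all 3 pairs together. All 18 fallen genes were also lower with MS177-N2 than with MS177-N1, where 7.87% of 15267 tested genes were lower, and than with C24, where 1.09% were. The genes had been chosen on these same MS177-N2 libraries. In a fit of only the MS177-N2 and C24 libraries, 5 of the 18 still passed: ARPIN, FXYD3, IKBKE, INPP5J and MVP. PLA2G4A lost its call against C24 without either MS177-N2 library (limma adjusted p = 0.0506 and 0.0521). Without 1 library of MS177-N2 or MS177-N1 in turn, CELSR2 lost its call against MS177-N1 each time (limma adjusted p between 0.0821 and 0.134), and PLA2G4A, ADORA1 and MRAS lost theirs without at least 1 library. ARPIN had 847 and 1006 normalized counts with MS177-N1, 1221 and 1520 with C24 and 17.4 and 14.01 with MS177. For ARPIN the MS177-N2 libraries thus lay below those of MS177-N1 and C24 and above those of MS177 (log2 differences -3.42 ± 0.19, -3.98 ± 0.19 and 2.38 ± 0.19, limma adjusted p = 7.39e-06, 3.56e-06 and 4.93e-05).

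Against MS177 the set divided. ARPIN, CELSR2, FXYD3, INPP5J, PLA2G4A and SOWAHA were higher with MS177-N2 than with MS177 (6 of 18; 20.6% of all genes were higher), and ABHD6, AP1M2, SDSL and ZBED1 were lower (4 of 18; 17.7% of all genes). INPP5J had 170 and 174 with MS177-N2 and 37.2 and 50.5 with MS177. SDSL was the opposite case, with 1499 and 1652 with MS177, above its DMSO libraries, and 89.02 and 72.49 with MS177-N2 (log2 difference -4.28, limma adjusted p = 3.75e-06). For the other 8 genes the difference missed the threshold, which does not show that the compounds act alike. For MVP, at 195 and 178 against 198 and 164, the 95% interval ran from -0.27 to 0.36, and for SIDT2, at 68.66 and 73.28 against 88.08 and 78.51, from -0.67 to 0.22. Of the 10 calls, those of AP1M2, ABHD6 and PLA2G4A were lost without MS177-N2 replicate 1 (limma adjusted p = 0.0808, 0.0959 and 0.0501), AP1M2 and PLA2G4A also without MS177-N2 replicate 2 and AP1M2 and ABHD6 without MS177 replicate 2. Without MS177 replicate 1, MRAS was lower and IKBKE higher than with MS177 (limma adjusted p = 0.0181 and 0.0232), and without MS177-N2 replicate 1 TK2 was higher (limma adjusted p = 0.0181). CLN3 was higher with MS177-N2 than with all 3: it had 1610 and 1731 with MS177-N1, 1485 and 1333 with C24, and 1499 and 1462 with MS177 (log2 differences 0.93, 1.18 and 1.10, limma adjusted p = 0.000521, 0.000136 and 0.000198). In a fit of only the MS177-N2 and C24 libraries CLN3 did not pass (limma adjusted p = 0.192).

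Each compound's own comparison with DMSO shares the DMSO libraries with that of MS177-N2, so the values are set side by side only. Of the fallen genes, C24 lowered 0 of 18 tested (0.00851% of all genes were lower). MS177-N1 lowered 5 of 15 tested, CELSR2, MRAS, SIDT2, TK2 and ZBTB47, and raised SDSL, where 12.6% of all genes were lower and 14.9% higher. MS177 lowered 14 of 15 tested and raised SDSL, where 31.4% of all genes were lower and 31.1% higher. MRAS, for example, read 375 and 365 with MS177-N1, 664 and 556 with C24 and 147 and 283 with MS177.

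EZH2 was lower with MS177-N2 than with MS177, at 257 and 280 against 427 and 395 (-0.61 ± 0.14, limma adjusted p = 0.0166). SUZ12 was higher, at 1780 and 1787 against 1366 and 1353 (0.39 ± 0.10, limma adjusted p = 0.0281). Neither passed without any 1 library of either group (limma adjusted p between 0.0557 and 0.101 for EZH2 and between 0.107 and 0.15 for SUZ12). FOXM1 stood at 267 and 269 with MS177 and was higher with MS177-N2 (2.65 ± 0.16, limma adjusted p = 1.03e-05). Against MS177-N1 and C24 none of EZH2, EZH1, EED, SUZ12, FOXM1 and MYC passed. The FOXM1 intervals ran from -0.10 to 0.61 and from -0.11 to 0.59, and those of EZH2 from -0.65 to -0.02 and from -0.41 to 0.22.

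In all, 2289 of 15267 genes differed between MS177-N2 and MS177-N1 (1087 higher and 1202 lower with MS177-N2), 273 from C24 (106 and 167) and 5841 from MS177 (3144 and 2697; limma). These counts turn on single libraries: without MS177-N2 replicate 1 they were 651, 100 and 3699, and without MS177-N2 replicate 2 they were 202, 92 and 3478. Without MS177-N1 replicate 2 the first was 344, without C24 replicate 1 the second was 1206, and without MS177 replicate 2 the third was 3709. LMO2, a LIM-domain factor, was low with MS177-N2 and was among the largest negative differences from both MS177-N1 and C24. It read 29.5 and 27.1 with DMSO, 0 and 1.88 with MS177-N2, 32.4 and 30.8 with MS177-N1 and 39.4 and 37.1 with C24. Many of the other extremes were genes listed at 0 for one compound, where an exact 0 may be a failed estimate. HIST2H2AA3, AC090094.1, SAMHD1, TMEM189-UBE2V1 and C22orf46 were listed at 0 with MS177-N1, LMBRD1, CTD-2192J16.20, TRAM2-AS1, MMAA and RP11-400K9.4 with C24, and GJA1, RP11-70C1.3, SAMHD1 and XXbac-BPG246D15.9 with MS177. RP11-566K11.5, RP11-373L24.1 and XXbac-B461K10.4 were listed at 0 with MS177-N2, and EIF4EBP3, at 0 and 3.59, RP11-386G11.10, at 38.97 and 4.59, and LMO2 were lower than with MS177-N1. IKBKE and ARPIN were the next lowest against C24. Against MS177 the lipocalin LCN2 read 5.69 and 6.31 against 1237 and 1254, INHBE 29.9 and 42.2 against 2900 and 2795, and ANKRD1 13.8 and 11.7 against 1007 and 995. SCEL and CNTN4 were likewise lower and RP11-1035H13.3 higher with MS177-N2.

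BT-549 and T47D libraries gave a look at the same genes in samples that had no part in choosing them. In BT-549, MS177-N2 lowered 12 of the 16 fallen genes that were tested there, against 1.37% of 14356 genes, and raised CLN3, against 2.05% (limma on the table of that line). ARPIN fell from 978 and 1081 to 83.7 and 76.3, much as in T47D-TR (12.9-fold, limma adjusted p = 1.11e-09). INPP5J fell further there, from 123 and 142 to 8.70 and 7.10 (16.8-fold). CLN3 rose from 1813 and 1653 to 2833 and 3364 (1.79-fold, limma adjusted p = 0.00453). MRAS and ZBTB47 missed the threshold, at 1892 and 1945 against 1392 and 1254 and at 1198 and 1367 against 863 and 881 (limma adjusted p = 0.056 and 0.0594). AP1M2 and ZBED1 had higher means with MS177-N2 in BT-549 and did not pass, and FXYD3 was not listed. By level, both MS177-N2 libraries lay below both DMSO libraries in 14 of the 17 listed genes, against 26.1% of all genes.

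T47D gave 0 calls in either direction over 10432 genes (0% lower, limma), with 522 at an unadjusted p under 0.05. Only 12 of the 18 fallen genes were tested there. The lowest deposited value was 9.28 in T47D, against 7.31 in T47D-TR and 5.61 in BT-549. The filter thus asked for higher counts in T47D, and changes were more compressed. The T47D DMSO libraries differed from each other in the fallen genes. Replicate 2 lay below replicate 1 in every one of them, toward the MS177-N2 values in all but ZBED1. CLN3, the called rise in T47D-TR, read 2705 and 4235 with DMSO and 4700 and 4568 with MS177-N2. The cause of this split was not tested. ARPIN read 1982 and 664 with DMSO and 224 and 237 with MS177-N2, and OAF 258 and 68.6 against 16.3 and 30.7. Even so, both MS177-N2 libraries lay below both DMSO libraries in 17 of 18 fallen genes, against 17.9% of all genes. The median ratio of means was 3.73-fold there and rested on the DMSO libraries: it was 2.27-fold without T47D DMSO replicate 1 and 5.41-fold without DMSO replicate 2. In BT-549 it was 2.81-fold, and 2.74- to 3.49-fold without any 1 library. ZBED1 was the exception in T47D, at 1036 and 955 against 1032 and 1078.

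**Figure D4:**
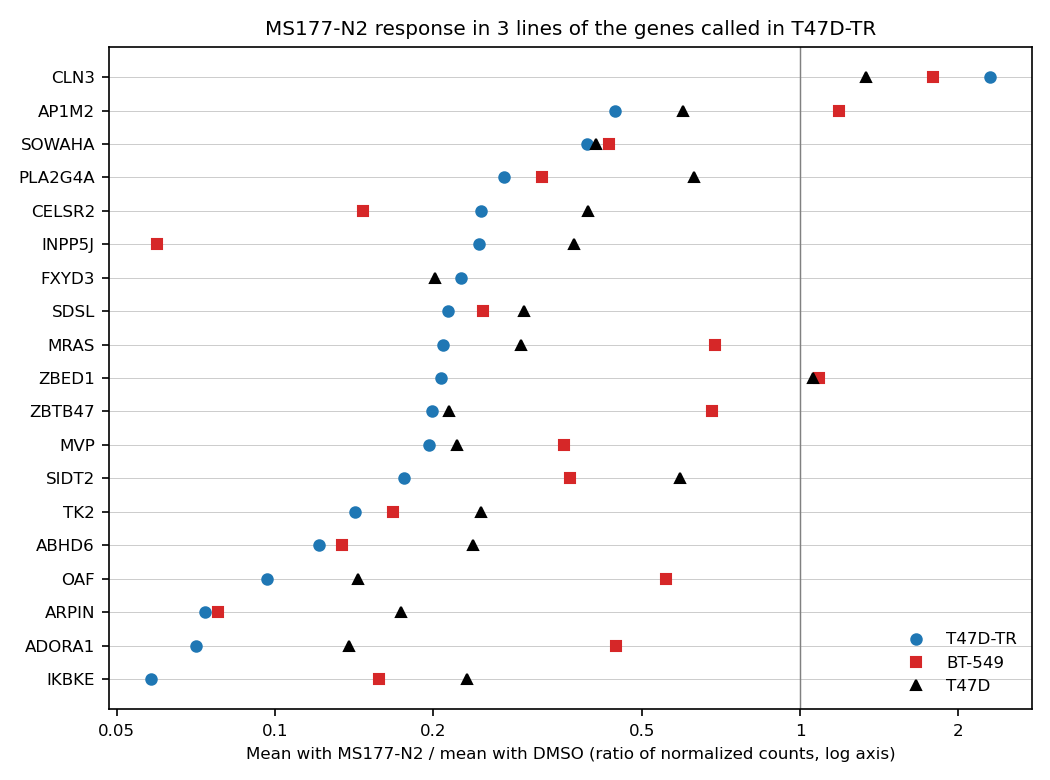
Ratio of the mean normalized count with MS177-N2 to that with DMSO (x, log axis) for each of the 19 genes called in T47D-TR, in T47D-TR (circles), BT-549 (squares) and T47D (triangles). Most symbols lie left of 1 in all lines, while ZBED1 lies near 1 outside T47D-TR and AP1M2 lies right of 1 in BT-549.

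The difference between the lines' responses was tested by interaction in 1 fit of 12 libraries on log2(normalized count + 1). It passed for 31 of 12498 genes against BT-549 (0.248%) and for 18 against T47D (0.144%; limma, adjusted over both together). Without T47D-TR DMSO replicate 1, DMSO replicate 2, MS177-N2 replicate 1 or MS177-N2 replicate 2 the counts were 86, 79, 59 and 106 against BT-549 and 52, 62, 49 and 69 against T47D. With a pseudocount of 10 they were 14 and 5, and in fits of only the 8 libraries of the lines compared 17 and 5. Of the 19 genes called in T47D-TR, ZBED1 differed from both lines, by -2.38 ± 0.16 and -2.35 ± 0.16 (limma adjusted p = 0.000162 for each). SIDT2 fell further than in T47D (-1.76 ± 0.23, limma adjusted p = 0.0142), where it read 4077 and 2738 against 1969 and 2059. INPP5J fell less than in BT-549 (1.89 ± 0.28, limma adjusted p = 0.0271), a difference that shrank to 1.03 with a pseudocount of 10 (limma adjusted p = 0.311). In fits of only the 8 libraries of the lines compared, neither INPP5J nor SIDT2 passed (limma adjusted p = 0.0643 and 0.156). Against BT-549 such a fit instead added MRAS, OAF and ZBTB47, which fell further in T47D-TR. Their differences were -1.71, -2.41 and -1.78 (limma adjusted p = 0.015, 0.038 and 0.0392). ARPIN differed between T47D-TR and BT-549 by -0.08 ± 0.52 and did not pass. These genes were picked by their response in T47D-TR, which favours large values there. The values of each line were also normalized apart. Normalized counts summed to 34.9 to 37.2 M per library in BT-549 and 37.1 to 37.7 M in T47D, against 14.5 to 15.1 M in T47D-TR. Some genes listed for T47D-TR, such as C14orf159, had no entry in the other lines. Line and processing thus cannot be told apart in these differences.

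The promoter word was then counted in the BT-549 response, whose libraries had no part in finding it. MS177-N2 lowered 184 genes in BT-549 that were not among the 18, and 116 of these had a promoter in the table. The word stood in 49 of the 116 (42.2%), against 22 of the 205 promoters of genes that rose (10.7%) and 13.1% of all promoters. Among the tested genes of T47D-TR other than the 18, a log2 difference under -0.5 was seen in 13 of 811 genes with the word (1.603%) and in 10 of 7871 without it (0.127%). In BT-549 the shares were 61 of 1006 (6.06%) and 178 of 9566 (1.86%). In T47D, where falls of this size on the deposited scale were rare, they were 1 of 779 and 1 of 7611. That scale is compressed differently in each line, so the limit is not the same fold and the shares cannot be compared between lines. In T47D, for example, MRAS fell 3.40-fold at a log2 difference of -0.55, and VASH1 3.93-fold at -0.11. Rises over 0.5 were seen in T47D-TR in 4 genes with the word (0.493%) and 22 without it (0.28%), and in BT-549 in 3.28% with and 3.49% without it. Medians hardly differed, at -0.02 with and -0.000332 without the word in T47D-TR and at -0.03 and -0.00463 in BT-549, so most genes that hold it did not fall.

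**Figure D5:**
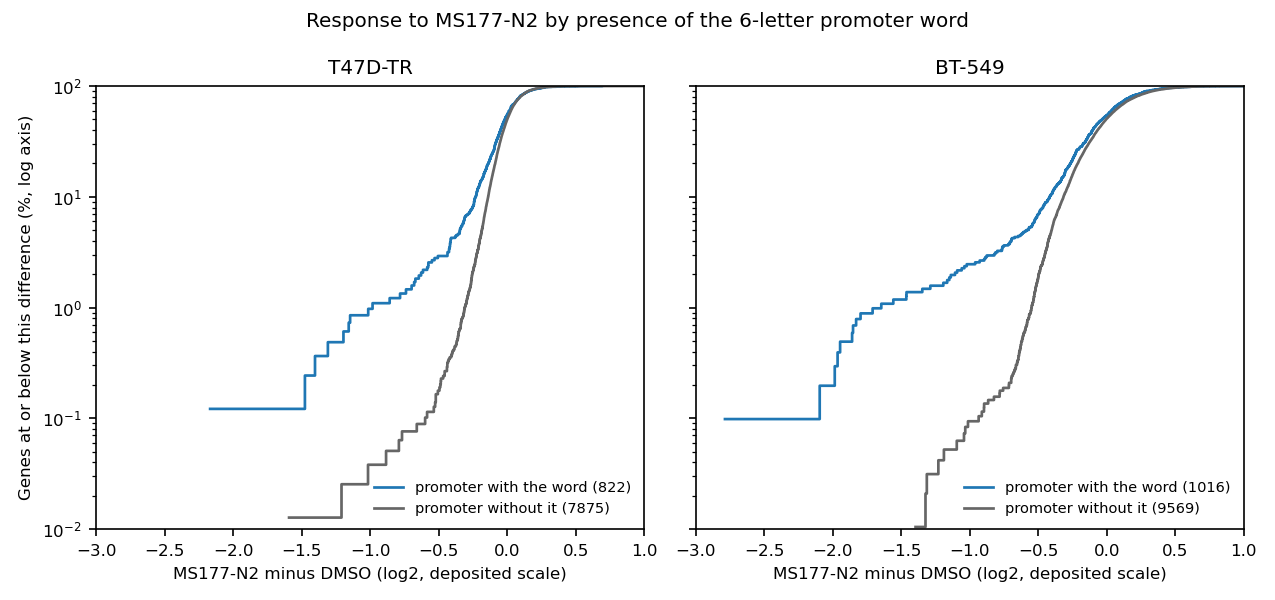
Share of genes (y, percent on a log axis) at or below each log2 difference of MS177-N2 and DMSO (x, deposited scale), for tested genes whose promoter holds the 6-letter word (blue) or does not (grey), in T47D-TR (left) and BT-549 (right). The curves part in the left tail, where genes with the word are more frequent. Differences in the right tail cannot be seen on this axis. The 18 fallen genes, in which the word was found, are included. The deposited scale is compressed differently in these lines, so equal x values are not equal folds.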

How the data were processed

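The authors deposited 1 table of log2 values per compound and line, with 4 libraries each; the submitters' processing notes name RSEM, DESeq and hg38 without versions. Values were taken as a variance-stabilizing transform within each table. Normalized counts q were recovered as (2^v - 2 m)2 / 2^v, where v is the value and m the lowest value of its table. The 2 DMSO libraries stand in all 4 T47D-TR tables, and the log2 ratio of a gene between tables was the same in both libraries up to a constant of 0.00458 to 0.0252 per table. The other tables were therefore aligned to that of MS177-N2 gene by gene through these libraries. Limma (version 3.58.1, R 4.3.3; mean trend, robust empirical Bayes, two-sided) was fitted to the deposited log2 values for MS177-N2 against DMSO, with genes over 1 unit above the lowest value in at least 2 libraries. Comparisons between compounds and between lines used log2(q + 1) and kept genes that reached 10 normalized counts in 2 or more libraries. Benjamini-Hochberg adjustment was used throughout, with a threshold of 0.05. The fit was also run on simulated counts in which only well expressed genes were changed and replicates shared no effect. That run does not bear on weakly expressed genes. The rule for named genes took EZH2, EZH1, EED, SUZ12, FOXM1 and MYC, called genes by size, up to 4 called or 2 abundant members per list, and the 5 largest differences each way between compounds or lines. Some called genes beyond these limits are named too. The compared genes, lists and rules were chosen with earlier results of these data known. Promoter sequences are from RefSeq (GRCh38.p14), matched by symbol for 8697 of 10852 tested genes. Alternatives included other scales, filters, scalings, a replicate block and each library left out.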

Additional observations from a re-analysis of the deposited data

Results flagged for a closer look

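The response to MS177-N2 differed between lines, by the interaction test of limma, for 31 genes between T47D-TR and BT-549 and for 18 between T47D-TR and T47D. Against BT-549 the T47D-TR response was more negative for ZBED1 (log2 difference -2.38) and more positive for INPP5J (1.89). It was more positive for STS (5.78), KIF12 (4.98), SBF2-AS1 (4.36), KCNN1 (4.02) and TRIM52-AS1 (3.72), and more negative for NBPF8 (-5.02), ANKRD18A (-3.35), COL7A1 (-3.10), ZNF860 (-2.91) and HMCN1 (-2.87). Against T47D it was more negative for SIDT2 (-1.76), ZBED1 (-2.35), NBPF8 (-4.89), ANKRD18A (-3.32), PALM3 (-2.98) and CHCHD5 (-2.90), and more positive for STS (5.88), SBF2-AS1 (4.26), C1R (3.93), KIF12 (3.77) and TRIM52-AS1 (3.40).

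Many of these rest on values listed at 0 in T47D-TR, and line and processing cannot be told apart in them. STS, steroid sulfatase, was listed at 0 in both DMSO libraries and read 102 and 36.9 with MS177-N2, while T47D read 681 to 756 in its 4 libraries. NBPF8, of a family of near-identical copies, read 39.96 and 31.99 with DMSO and was listed at 0 with MS177-N2, while BT-549 read 1511 to 1954. ZNF860 read 52.8 to 67.7 in the 4 T47D-TR libraries, and its difference came from BT-549, with 2.04 and 1.00 against 20.7 and 15.1. COL7A1, a collagen, read 27.4 and 49.7 with DMSO and 10.1 and 9.78 with MS177-N2 in T47D-TR, and went the other way in BT-549, from 314 and 387 to 775 and 968.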

How the results depend on the processing

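Counts of called genes for MS177-N2 against DMSO lay between 14 and 22 under 7 settings of scale, pseudocount, filter, trend, scaling and libraries fitted, and between 11 and 43 without any 1 library, 11 without either DMSO library and 43 without MS177-N2 replicate 2. Without a DMSO library, 8 of the 10 genes lost were no longer tested, since the filter asks for 2 libraries. With a replicate block 54 genes passed, all 19 among them. The replicate differences of DMSO and MS177-N2 correlated at 0.547 over genes, but with 2 pairs the libraries share only a number. With the block the counts were 1565 against MS177-N1, 200 against C24 and 5279 against MS177, 7 for the response against BT-549 and 6 against T47D. Without 1 library the counts ran from 202 to 1559 against MS177-N1, 92 to 1206 against C24 and 3478 to 4058 against MS177, and from 59 to 106 and 49 to 69 for the responses against BT-549 and T47D. The extremes came without MS177-N2 replicate 2 (202, 92, 3478 and 106) and without C24 replicate 1 (1206). In a fit of only the 4 libraries compared, 7 genes differed from C24. The response counts were 14 and 5 with a pseudocount of 10, and 17 and 5 in fits of only the 8 libraries of the lines compared, so the count of line differences depends on these choices; the cause was not tested. The word stood in 60.0 to 76.9% of the promoters of genes called lower under the 12 settings, chosen after seeing the data. Most of these promoters belong to the genes in which the word was found, so a similar share was largely fixed in advance. No result changed sign while called. Depth is unknown, which limits statements on genes near 0.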
